A study of Mus musculus with 4 samples.

Results

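The genes described here encode metalloproteinases of the matrix metalloproteinase (MMP) and ADAM families, with their ADAMTS and ADAMTS-like relatives, and the tissue inhibitors of metalloproteinases (TIMPs). Members were all genes whose platform symbol is Mmp, Timp, Adam, Adamts or Adamtsl followed by a number. The rule used symbols and no measured value, although the members were chosen with earlier results of these data known. It found 70 of 18193 measured genes, on 124 probe sets: 18 MMP, 4 TIMP, 28 ADAM, 15 ADAMTS and 5 ADAMTS-like genes. Where a gene had several probe sets, the brightest on average across the 4 arrays stood for it, and no member was filtered out.

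The arrays held RNA of podoplanin-selected cells from tumour-draining lymph nodes of mice, 2 biological replicates a group. Metastatic arrays came from nodes draining 293-VEGF-D tumours, made of human 293 kidney cells that overexpress the lymphatic growth factor VEGF-D, and non-metastatic arrays from nodes draining 293-Apex tumours. All hosts were female SCID/NOD mice of 6 to 8 weeks, which are immunodeficient. The left axillary nodes were collected when tumours measured 1600 to 2500 mm3, which took 3 to 4 weeks. Nodes of 1 to 5 mice were pooled per preparation, and the cells were grown briefly in endothelial growth medium before selection. Metastatic nodes were used only when visibly enlarged, and the sorting label gives depletion of tumour cells and leukocytes for the metastatic preparations but not for the non-metastatic ones. Metastasis, VEGF-D, node size and depletion cannot be told apart in this design, and in a mixed preparation fewer cells of a type and less RNA per cell cannot be told apart either.

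MMPs are zinc enzymes that cut collagens, other matrix proteins and surface proteins outside the cell, and most are made as inactive proenzymes. ADAMs are mostly membrane-bound and release the outer parts of growth factors, cytokines and receptors, whereas ADAMTS enzymes are secreted and several of them cut the large proteoglycans versican and aggrecan. TIMPs bind the active site of these enzymes. In lymph nodes the podoplanin-positive cells that could carry such RNA include lymphatic endothelium and fibroblastic reticular cells.

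The cells' identity was checked on marker lists. The lymphatic transcription factor gene Prox1 and the endothelial junction genes Pecam1 and Cdh5 lay below the median signal of all probe sets (log2 signal 5.95) on average, while 8 of 9 measured fibroblast markers lay above it. Of the other endothelial markers some were brighter: 3 of 6 lymphatic markers (Lyve1, Flt4 and Pdpn) and 3 of 7 blood endothelial markers (Kdr, Emcn and Tek) lay above that median. The markers were thus mixed with respect to the endothelial label, and the cells are called podoplanin-selected cells here. All 6 smooth muscle markers had negative differences (metastatic minus non-metastatic). Of these, 4 had an unadjusted limma p under 0.05, where 4.07% of all genes had such a p and were lower. The list means were 8.56 and 9.02 on metastatic arrays against 9.54 and 9.72 on non-metastatic arrays. All 7 epithelial markers had negative differences too (list means of 5.71 and 5.78 against 6.17 and 6.33), with a median of -0.19. Of these, Perp had -2.64 and an unadjusted p under 0.05, and the 6 others had no such p. Negative differences were also found for 7 of 10 leukocyte and macrophage markers (6.28 and 6.20 against 6.65 and 6.39). Of these 10 markers, 6 lay above the median signal of all probe sets. The fibroblast list had 4 positive and 5 negative differences (11.51 and 11.07 against 11.55 and 11.44). Its median was -0.02, with Cxcl13 lowest at -1.95. The blood endothelial list had means of 6.00 and 5.68 against 6.50 and 6.17, with 3 positive and 4 negative differences, a median of -0.07 and Emcn lowest at -2.53. The lymphatic list had means of 6.34 and 5.84 against 6.64 and 6.32, with 2 positive and 4 negative differences and a median of -0.11. In it Lyve1 stood at -2.76, and Pdpn, which encodes the selection marker podoplanin, at 0.51 (SE 0.11; limma adjusted p = 0.424). The mesothelial list had means of 6.30 and 6.90 against 6.49 and 6.91, with 2 positive and 2 negative differences, from -1.44 for Msln to 1.00 for Wt1. The adipocyte list had means of 10.65 and 8.00 against 9.25 and 8.63. The part of these cell types in the differences below was not tested.

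The promoter windows of 4 genes are shown first. Timp3, Mmp3 and Adamtsl4 had the most negative differences of the members, and Mmp14 is a bright membrane-type enzyme gene with higher signal in the metastatic group. Each is the 250 bases before the gene's RefSeq start on build GRCm38.p6, read 5′ to 3′ on the gene's strand. Capitals mark matches, on either strand, to the AP-1 motif TGANTCA, the TATA box TATAAA or the GC box GGGCGG. In Mmp14 a pair of GC boxes lies side by side.
Timp3, chr10:86300162-86300411, plus strand: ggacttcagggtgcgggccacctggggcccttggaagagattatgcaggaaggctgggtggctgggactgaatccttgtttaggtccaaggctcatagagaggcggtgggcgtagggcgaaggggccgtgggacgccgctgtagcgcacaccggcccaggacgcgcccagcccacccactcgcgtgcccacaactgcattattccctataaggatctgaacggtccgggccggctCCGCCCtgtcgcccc
Mmp3, chr9:7445572-7445821, plus strand: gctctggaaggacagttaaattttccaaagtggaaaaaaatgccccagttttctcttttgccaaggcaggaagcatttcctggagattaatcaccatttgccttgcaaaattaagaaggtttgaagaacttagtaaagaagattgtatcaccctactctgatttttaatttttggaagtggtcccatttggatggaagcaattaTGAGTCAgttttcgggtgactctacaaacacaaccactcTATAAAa
Adamtsl4, chr3:95687918-95688167, minus strand: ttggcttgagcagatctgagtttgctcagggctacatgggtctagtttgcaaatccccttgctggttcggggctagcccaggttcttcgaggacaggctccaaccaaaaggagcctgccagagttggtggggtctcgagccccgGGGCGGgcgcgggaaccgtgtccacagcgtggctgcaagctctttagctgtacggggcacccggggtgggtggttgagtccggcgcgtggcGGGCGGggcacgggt
Mmp14, chr14:54431348-54431597, plus strand: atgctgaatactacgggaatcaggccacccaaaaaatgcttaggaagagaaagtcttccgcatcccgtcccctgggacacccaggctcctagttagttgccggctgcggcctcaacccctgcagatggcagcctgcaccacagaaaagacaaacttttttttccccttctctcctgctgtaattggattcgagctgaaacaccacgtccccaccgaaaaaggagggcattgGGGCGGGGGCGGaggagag
The window of Mmp3 held an AP-1 match and a TATA box and no GC box, and the other 3 windows held GC boxes and neither of the other motifs. Of all 32851 promoter windows of this length, 6.75% held the AP-1 motif, 12.37% the TATA box and 32.74% the GC box. RefSeq windows were matched for 41 of the 70 members, and of these 10 held AP-1, 11 the TATA box and 19 the GC box. A match describes the letters and does not show a binding site.

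In the comparison of metastatic with non-metastatic arrays, no member had a limma p under 0.05 after Benjamini-Hochberg adjustment across 45037 probe sets, and the background over all 18193 genes was 0% as well. At an unadjusted limma p under 0.05 there were 14 members (20.0%), 5 higher and 9 lower in the metastatic group, where 6.70% of all genes had such a p, 2.63% higher and 4.07% lower. Both metastatic arrays lay outside the range of both non-metastatic arrays for 32 members (45.7%), 11 higher and 21 lower, against 34.6% of all genes, 17.2% higher and 17.3% lower. A difference of at least 0.5 log2 units either way was seen for 10 members (14.3%), 4 higher and 6 lower, against 4.28% of all genes, 1.45% higher and 2.83% lower. The median difference, metastatic minus non-metastatic, was -0.04 log2 units over the members and 0.00 over all genes. With 2 arrays a group, an exact two-sided permutation test cannot give a p below 0.33. Adjusted p-values below are from limma over all probe sets, and intervals are its 95% intervals.

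**Figure D1:**
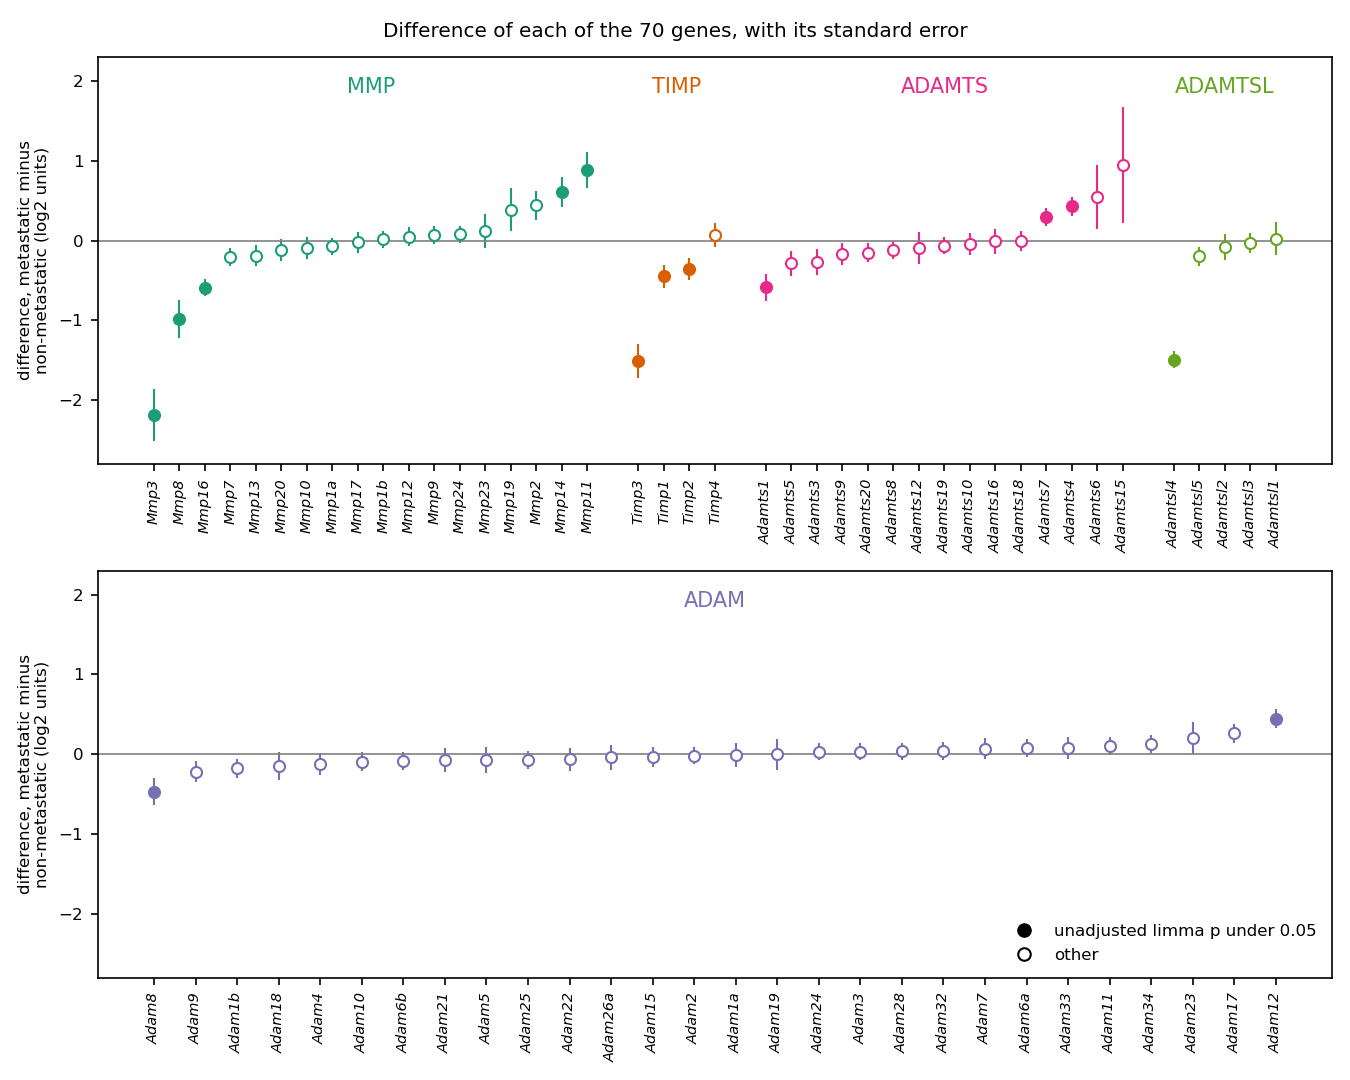
Difference in log2 signal, metastatic minus non-metastatic, of each of the 70 genes (points) with its limma standard error (bars), ordered within families; filled points have an unadjusted p under 0.05. Mmp3, Timp3 and Adamtsl4 lie lowest. Most ADAM genes lie near 0, and 18 of the 28 have a mean below the median of all probe sets.

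The inhibitors came out lower in the metastatic group for 3 of 4 genes, each with groups that did not overlap. Of all genes, 17.3% were lower without overlap. The median difference of the TIMPs was -0.40. Timp3, which encodes an inhibitor that binds to the matrix and also blocks ADAM17 and the aggrecan-cleaving ADAMTS enzymes, had log2 signals of 12.40 and 11.86 on the metastatic arrays, against 13.80 and 13.48 on the non-metastatic arrays. The groups lay more than a log2 unit apart, further than the replicates of either. Its difference was -1.51 (SE 0.21, interval -2.04 to -0.98), or 2.85-fold lower signal in the metastatic group (limma adjusted p = 0.260). All 4 probe sets of Timp3 were lower in the metastatic group, with differences from -1.56 to -1.43.

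Timp1 encodes a secreted inhibitor that acts weakly on membrane-type MMPs. Its log2 signals were 13.65 and 13.95 in the metastatic group, against 14.32 and 14.18 in the non-metastatic group, a difference of -0.45 (SE 0.14; limma adjusted p = 0.700). Without metastatic replicate 1 it was -0.30. Timp2, whose product both inhibits MMPs and helps MMP14 to activate pro-MMP2, had 13.84 and 13.57 against 14.03 and 14.10, a difference of -0.36 (SE 0.13; limma adjusted p = 0.785). The 4 brightest of its 6 probe sets ranged from -0.37 to -0.27, and the other 2 stood at 0.00 and -0.06. Without metastatic replicate 2 the difference of Timp2 was -0.22. Both genes gave signals near the highest deposited value, 14.87.

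Timp4 had 6.73 and 6.42 in the metastatic group, against 6.60 and 6.41 in the non-metastatic group, and the groups overlapped. Its difference of 0.07 (SE 0.15, interval -0.31 to 0.44) was smaller than its standard error, and turned to -0.09 without metastatic replicate 1, and to -0.03 when non-metastatic replicate 2 was left out. A second, dimmer probe set of Timp4 had 6.31 on metastatic replicate 1 and 4.17 on metastatic replicate 2, against 4.19 and 4.81 on the non-metastatic arrays, so that 1 array stood apart there. In the RefSeq annotation Timp1, Timp3 and Timp4 each lie within the span of a synapsin gene, Syn1, Syn3 and Syn2 in that order.

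**Figure D2:**
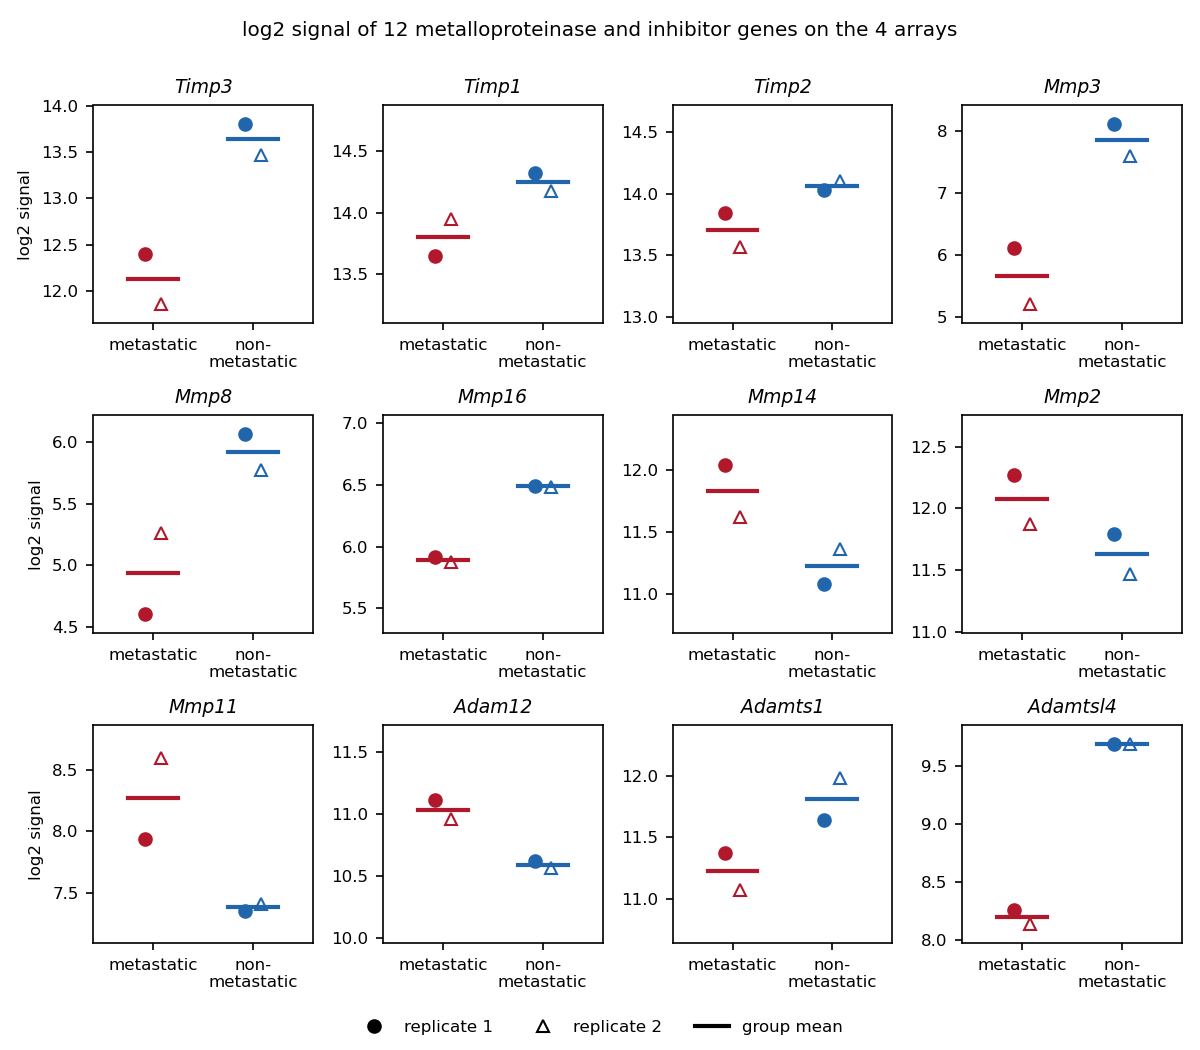
log2 signal of 12 genes on each array, with metastatic arrays in red, non-metastatic arrays in blue, replicate 1 as filled circles, replicate 2 as open triangles and group means as lines; each panel has its own scale. The 12 genes are a selection from the 70 members, and the groups of all 12 do not overlap. This held for 32 of the 70 members (45.7%) and 34.6% of all genes. The widest separation is seen for Mmp3, Timp3 and Adamtsl4.

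Among the MMPs, differences went both ways: 9 of 18 genes were higher and 9 lower in the metastatic group, with a median of 0.00. Mmp3 (stromelysin 1), which cuts proteoglycans and glycoproteins of the matrix and activates other proMMPs, had 6.12 and 5.21 on metastatic arrays, against 8.10 and 7.59 on non-metastatic arrays. It had the most negative difference of the 70 genes, -2.18 (SE 0.33, interval -2.99 to -1.38), a 4.54-fold lower signal (limma adjusted p = 0.292). Its replicates lay 0.91 apart in the metastatic group, and 0.51 apart in the other, less than the gap between groups. Mmp11 (stromelysin 3), an enzyme made by stromal fibroblasts and activated inside the cell by furin, went the other way, with 7.94 and 8.59 against 7.36 and 7.41. Its difference was 0.88 (SE 0.22; limma adjusted p = 0.538), and 0.56 without metastatic replicate 2. The remaining stromelysin, Mmp10, had a difference of -0.09 with overlapping groups.

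Of the 4 collagenase genes, Mmp8, known as the collagenase of neutrophils, had 4.61 and 5.26 in the metastatic group, against 6.06 and 5.77 in the non-metastatic group. The difference was -0.98 (SE 0.24; limma adjusted p = 0.531), and -0.65 without metastatic replicate 1. Its probe set was dim, with a mean below the median of all probe sets. The leukocyte marker Ptprc was dim as well, at 4.28 and 4.01 against 4.13 and 4.08, but 6 of the 10 measured leukocyte and macrophage markers lay above that median. The brightest, Csf1r, had 9.61 and 9.26 against 9.88 and 10.07, a difference of -0.54 with groups that did not overlap. The 10 markers had 7 negative and 3 positive differences, with a median of -0.25. These ranged between -1.47 for the lysozyme gene Lyz2 and 0.28 for the myeloid integrin gene Itgam, and neither gene's groups overlapped. Mmp1a, Mmp1b and Mmp13 were dim on every array and had differences of -0.07, 0.02 and -0.19.

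The cell-surface collagenase gene Mmp14 (MT1-MMP) and its partner Mmp2 (gelatinase A) were both higher in the metastatic group. Mmp14 had 12.05 and 11.62 on metastatic arrays, against 11.08 and 11.37 on non-metastatic arrays, a difference of 0.61 (SE 0.18, interval 0.15 to 1.07; limma adjusted p = 0.655). Without metastatic replicate 1 it was 0.40. A second probe set of Mmp14 had a difference of 0.85 (SE 0.22), and the dimmest of the 3 had 0.09 (SE 0.14) with overlapping groups. Mmp2, whose proenzyme MMP14 activates on the cell surface with the help of TIMP2, had 12.27 and 11.87 against 11.79 and 11.47. Its groups did not overlap, by a margin smaller than the gap between its replicates. The difference was 0.44 (SE 0.18; limma adjusted p = 0.835) and was 0.24 without metastatic replicate 1. It was 0.28 when non-metastatic replicate 2 was left out. The other gelatinase gene, Mmp9, had 5.37 and 5.44 against 5.27 and 5.40, which overlapped.

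Mmp16 (MT3-MMP), a second membrane-type enzyme, was lower where Mmp14 was higher: 5.92 and 5.87 in the metastatic group against 6.49 and 6.49 in the non-metastatic group. Its difference was -0.59 (SE 0.11, interval -0.86 to -0.33; limma adjusted p = 0.374). A further probe set of Mmp16 had -1.35 (SE 0.17), from 4.86 and 5.14 against 6.18 and 6.53, and the remaining probe sets had -0.34 and, the dimmest, 0.12. The membrane-type genes Mmp17 and Mmp24 stood at -0.02 and 0.08. Mmp19, an MMP of broad tissue distribution, had 9.66 on metastatic replicate 1, above the 8.83 on metastatic replicate 2 and the 8.91 and 8.80 on the non-metastatic arrays. The difference of 0.38 (SE 0.27) rested on that array and was -0.03 without it. Mmp23 had 10.26 and 9.67 against 9.71 and 9.97, a difference of 0.12 (SE 0.22) with overlapping groups, which turned to -0.18 without metastatic replicate 1. The other 10 MMP genes had differences from -0.21 to 0.08, and none had an unadjusted p under 0.05.

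Mmp3 and Mmp8 belong to a run of 10 neighbouring MMP genes on mouse chromosome 9, of which 9 were measured here. In RefSeq order these are Mmp13, Mmp12, Mmp1b, Mmp3, Mmp1a, Mmp10, Mmp8, Mmp20 and Mmp7. Apart from Mmp3 and Mmp8, the 7 others had differences of less than 0.25 log2 units in size, and 5 of those 7 had a mean below the median of all probe sets. The groups of Mmp1a, Mmp7 and Mmp13 did not overlap either, at these small differences. Low signal limits what can be seen: a small difference at a dim probe set does not show that expression was alike. An AP-1 match was found for 8 of the 9 genes. None was found for Mmp8, for which the presence of a matched window was not recorded. The matches are shown with 10 bases on either side, the motif in capitals.
Mmp3, chr9:7445766-7445792, plus strand: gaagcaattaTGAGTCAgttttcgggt
Mmp10, chr9:7502269-7502295, plus strand: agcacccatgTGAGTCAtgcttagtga
Mmp1a, chr9:7464058-7464084, plus strand: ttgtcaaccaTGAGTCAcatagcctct
Mmp1b, chr9:7388103-7388129, minus strand: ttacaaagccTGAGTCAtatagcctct
Mmp7, chr9:7692017-7692043, plus strand: agtgtgcaaaTGAGTCAcctatttcca
Mmp12, chr9:7347320-7347346, plus strand: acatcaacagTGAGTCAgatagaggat
Mmp13, chr9:7272469-7272495, plus strand: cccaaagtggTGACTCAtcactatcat
Mmp20, chr9:7628126-7628152, plus strand: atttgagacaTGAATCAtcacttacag
Mmp3 shares the core TGAGTCA with Mmp10, Mmp1a, Mmp1b, Mmp7 and Mmp12. Mmp13 has TGACTCA, which is the same core read on the other strand, whereas Mmp20 has TGAATCA. None of these others differed by more than 0.21 log2 units, but Mmp1a, Mmp1b, Mmp12, Mmp13 and Mmp20 were dim. Any part of the motif in the difference of Mmp3 was not tested.

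**Figure D3:**
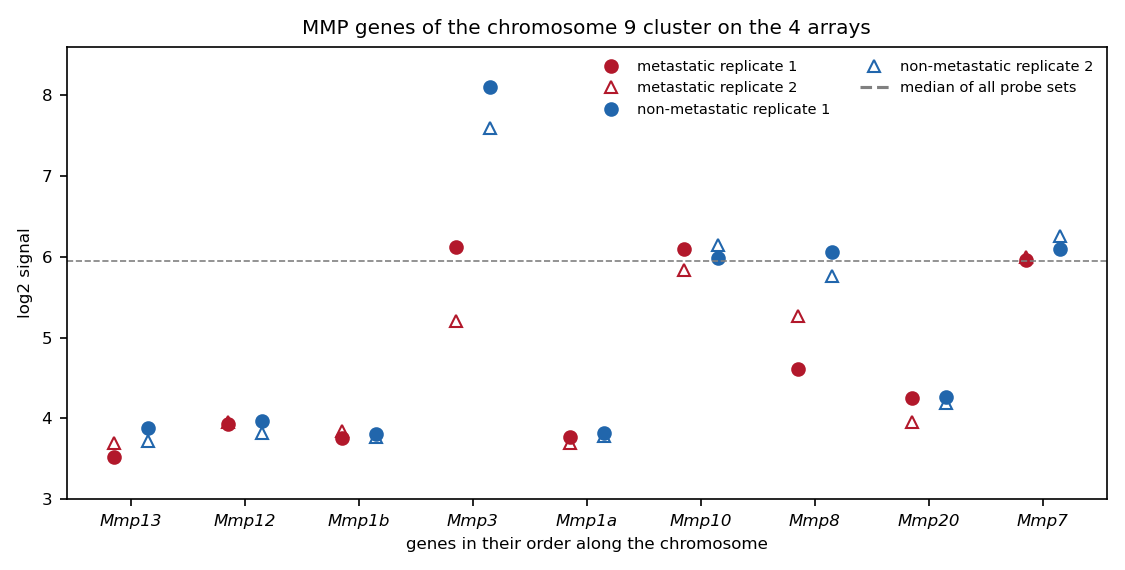
log2 signal of the 9 measured MMP genes of the chromosome 9 run on the 4 arrays, in gene order; metastatic arrays are red and left of the non-metastatic arrays in blue, and the dashed line is the median of all probe sets. Mmp3 and Mmp8 separate the groups most, with differences of -2.18 and -0.98 log2 units, and the others lie close together.

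The 28 ADAM genes had differences between -0.47 and 0.45, with a median of -0.01. Adam12, which encodes a stromal enzyme able to release HB-EGF, was higher: 11.11 and 10.96 on metastatic arrays against 10.62 and 10.56 on non-metastatic arrays. The difference was 0.45 (SE 0.12, interval 0.16 to 0.73; limma adjusted p = 0.575), and the second probe set had 0.56 (SE 0.11). Adam17, the main releasing enzyme of TNF and of several EGF receptor ligands, had 9.78 and 9.95 against 9.63 and 9.57, a difference of 0.27 (SE 0.12; limma adjusted p = 0.855). Its groups did not overlap on any of the 3 probe sets, whose differences ran from 0.27 to 0.67. Adam8, an ADAM of myeloid cells, was dim and lower, with 5.49 and 5.20 against 5.98 and 5.65. Its difference was -0.47 (SE 0.17; limma adjusted p = 0.763), and -0.30 without non-metastatic replicate 1.

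Adam10, the enzyme that cuts Notch receptors, had 10.89 and 11.08 in the metastatic group, against 11.09 and 11.07 in the non-metastatic group, which overlapped. Its difference was -0.10 (SE 0.12, interval -0.39 to 0.20), but 2 further probe sets had 0.16 and 0.47, and the mean of all its probe sets gave 0.12. Adam9, a membrane-bound ADAM of many tissues, had 12.65 and 12.88 against 13.00 and 12.96, a difference of -0.22 (SE 0.13; limma adjusted p = 0.921). For Adam9 the groups did not overlap, but the difference was -0.10 without metastatic replicate 1 and -0.33 without metastatic replicate 2. Adam15 and Adam19 stood at -0.03 (interval -0.34 to 0.28) and 0.00 (interval -0.48 to 0.48), both with overlapping groups and with signs that changed between settings. Adam23, an ADAM without protease activity known from the nervous system, had 10.41 on metastatic replicate 1 and 9.85 on metastatic replicate 2, against 9.86 and 10.00 on the non-metastatic arrays, a difference of 0.20 (SE 0.20) that was -0.08 without metastatic replicate 1. The remaining 20 ADAM genes, many of them known from testis, ranged from -0.18 to 0.13. Of all 28 ADAM genes, 18 had a mean below the median of all probe sets. At such dim probe sets a small difference does not show that expression was alike.

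ADAMTS enzymes that cut versican and aggrecan differed in both directions. Adamts1 had 11.38 and 11.07 on metastatic arrays, against 11.64 and 11.98 on non-metastatic arrays, a difference of -0.59 (SE 0.17, interval -1.01 to -0.16; limma adjusted p = 0.637). Adamts5, the main aggrecan-cleaving enzyme of mouse cartilage, had 11.93 and 12.24 against 12.26 and 12.49. Its groups came close without overlapping, and the difference was -0.29 (SE 0.15; limma adjusted p = 0.904), or -0.14 without metastatic replicate 1, -0.44 without metastatic replicate 2 and -0.17 when non-metastatic replicate 2 was left out. A further 2 bright probe sets of Adamts5 had -0.39 (SE 0.13) and -0.52 (SE 0.12), and the dimmest had 0.31 with overlapping groups. Adamts4 went the other way, with 7.21 and 7.03 against 6.65 and 6.73, a difference of 0.43 (SE 0.12, interval 0.13 to 0.73; limma adjusted p = 0.624).

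For Adamts15 and Adamts6, the difference of the brightest probe set rested on 1 array. Adamts15, another versican-cleaving enzyme, had 8.31 on metastatic replicate 1, but 5.90 on metastatic replicate 2, against 6.33 and 5.99 on the non-metastatic arrays. Its difference of 0.94 (SE 0.73) became -0.26 without metastatic replicate 1. That array was also the highest for the 3 measured adipocyte markers, by unequal margins. Pparg had 10.68 and 8.52 on the metastatic arrays, against 8.07 and 8.53 on the non-metastatic arrays. Adipoq had 9.04 and 4.52 against 8.40 and 5.66, so that non-metastatic replicate 1 was nearly as high. Fabp4 had 12.22 and 10.95 against 11.27 and 11.70. The group differences of Pparg, Adipoq and Fabp4 were 1.30, -0.25 and 0.10, all with overlapping groups. Adamts6 had 7.85 on metastatic replicate 2, where metastatic replicate 1 had 6.57 and the non-metastatic arrays 6.80 and 6.52. The difference of Adamts6, 0.55 (SE 0.40), became -0.09 without metastatic replicate 2. Its second, dimmer probe set had 5.14 and 5.79 against 4.98 and 5.06, a difference of 0.44 (SE 0.22; limma adjusted p = 0.884) with groups that did not overlap.

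Adamts7 and Adamts12 encode a related pair of enzymes that cut cartilage oligomeric matrix protein. Adamts7 was dim, with 5.67 and 5.54 in the metastatic group against 5.31 and 5.31 in the non-metastatic group, a difference of 0.30 (SE 0.11; limma adjusted p = 0.784). Adamts12 had 10.08 and 10.56 against 10.26 and 10.57, which overlapped, with a difference of -0.09 (SE 0.20) that turned to 0.15 without metastatic replicate 1 and, with non-metastatic replicate 2 left out, to 0.06. The remaining 8 ADAMTS genes had differences from -0.27 to -0.01 at their brightest probe sets, and the median over all 15 was -0.07. One of them, Adamts10, stood at -0.05 there. Its second, dimmer probe set had 0.42 (SE 0.15; limma adjusted p = 0.768) with groups that did not overlap.

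ADAMTS-like proteins resemble ADAMTS enzymes but lack the protease domain and act as matrix proteins. Adamtsl4, whose product binds fibrillin microfibrils and is needed in humans to keep the eye lens in place, had 8.25 and 8.13 on metastatic arrays, against 9.68 and 9.68 on non-metastatic arrays. The replicates lay within 0.12 of each other, and the difference was -1.49 (SE 0.11, interval -1.77 to -1.22), a 2.81-fold lower signal. It had the smallest limma adjusted p of the 70 genes, 0.110. With an array left out the difference of Adamtsl4 ran between -1.55 (without metastatic replicate 1) and -1.43 (without metastatic replicate 2). The gene has 1 probe set here, with a name suffix used for probes shared by alternative transcripts of a gene. Adamtsl5, which also binds fibrillin, had 8.29 and 8.17 against 8.36 and 8.49, a difference of -0.20 (SE 0.12; limma adjusted p = 0.930), and -0.13 without non-metastatic replicate 2. Adamtsl1, Adamtsl2 and Adamtsl3 stood between -0.08 and 0.02 with overlapping groups.

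The choice of probe set mattered for some genes. Of the 32 members with more than 1 probe set, 18 had all of them on the same side of 0. Those of Timp3, Mmp2, Mmp14, Adam12 and Adam17 did not change sign, while Timp2, Mmp16 and Adamts5 each had a probe set on the other side, as the plot of single probe sets shows.

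**Figure D4:**
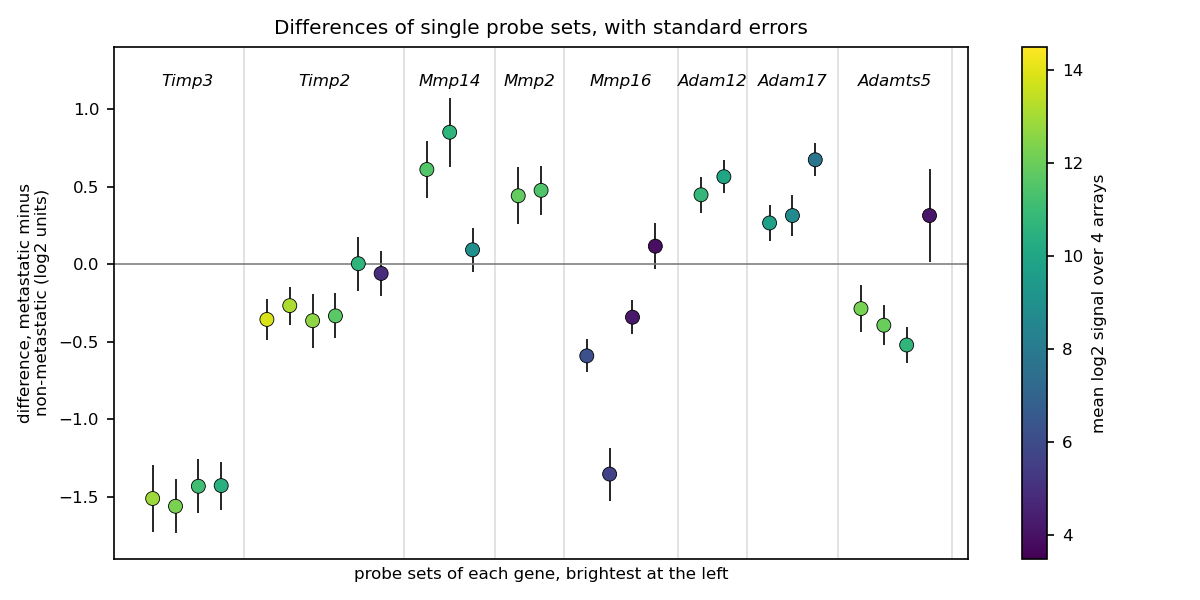
Differences in log2 signal, metastatic minus non-metastatic, of every probe set of 8 genes (points, with limma standard errors), coloured by mean log2 signal and ordered from the brightest. The 4 probe sets of Timp3 lie between -1.56 and -1.43, and the single probe sets on the other side of 0 for Mmp16 and Adamts5 are the dimmest of their genes.

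Replicates of the metastatic group lay further apart than those of the non-metastatic group for 51 of the 70 members. For the members, the median gap was 0.21 log2 units between metastatic replicates and 0.12 between non-metastatic ones. For all genes the gaps were 0.18 and 0.11.

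Genes that work with the metalloproteinases were described on 5 lists: regulators, EGF-family ligands released by ADAMs, other membrane proteins they release, proteoglycans of the versican type with their link proteins, and the astacin proteinases. No gene on these lists passed limma with Benjamini-Hochberg adjustment. An unadjusted p under 0.05 was found for 7 of the 51 measured genes (13.7%), all lower in the metastatic group, against 6.70% of all genes, 4.07% lower. Of 17 regulators, 7 were higher and 10 lower, with a median of -0.01. Reck, a membrane-anchored inhibitor of MMP14, MMP2 and MMP9, had 9.30 and 8.87 on metastatic arrays, against 9.76 and 9.43 on non-metastatic arrays, a difference of -0.51 (SE 0.19; limma adjusted p = 0.779). Tspan5, a tetraspanin that guides ADAM10 to the cell surface, had 9.72 and 9.57 against 10.42 and 10.41, a difference of -0.77 (SE 0.11; limma adjusted p = 0.289). Furin, which activates membrane-type MMPs and many ADAMs, stood at 0.02 with overlapping groups.

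Of 7 measured EGF-family ligands, 5 were lower in the metastatic group and 2 higher, with a median of -0.44. The most positive difference was 0.57 (SE 0.23; limma adjusted p = 0.826) for Nrg1, which was dim. Nrg1 had 6.09 and 5.41 on metastatic arrays against 5.26 and 5.11 on non-metastatic arrays, which did not overlap. Ereg, the gene of epiregulin, had 8.84 and 9.39 against 10.74 and 11.22, a difference of -1.87 (SE 0.24; limma adjusted p = 0.229). Hbegf had 7.46 and 8.09 against 8.30 and 8.90, and Tgfa had 7.79 and 7.31 against 8.02 and 8.20. Their differences were -0.83 (SE 0.28) and -0.56 (SE 0.19), and in both the groups did not overlap. Among 16 other released membrane proteins, 5 were higher and 11 lower. The heparan sulfate proteoglycan gene Sdc4 had 10.93 and 10.79 against 11.81 and 12.01, a difference of -1.05 (SE 0.13; limma adjusted p = 0.228). The N-cadherin gene Cdh2 had 10.51 and 11.07 against 11.19 and 11.56, a difference of -0.58 (SE 0.22; limma adjusted p = 0.793). The versican gene Vcan, a substrate of Adamts1, Adamts4 and Adamts5, had 11.55 and 11.56 against 11.58 and 11.36, which overlapped, and none of the 6 genes of its list or of the 5 astacin genes had an unadjusted p under 0.05.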

How the data were processed

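Biotin-labelled RNA of 4 preparations was hybridized to 1 Affymetrix mouse array each. The authors deposited log2 values, 1 per probe set and array, which spanned 3.10 to 14.87. How they were summarised or scaled is not given in the sources used here. Without detection calls, a dim gene cannot be called absent, and the number of arrays limits the precision. Because the array medians differed by 0.116 log2 units, over a limit of 0.1, the arrays were quantile normalized.

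Groups came from the sample titles. Of 45101 probe sets, 64 controls were left out and 45037 tested without a filter on dim ones. Of these, 34945 had 1 gene symbol, 932 several and 9160 none. limma (lmFit, eBayes) compared metastatic with non-metastatic arrays, with 2 residual and 3.71 prior degrees of freedom, two-sided, with Benjamini-Hochberg adjustment. The calculation was tested on simulated data. Described singly are all TIMPs and members with an unadjusted p under 0.05, a difference of at least 0.5, or a mean above the 75th percentile of all probe sets. From the pathway lists, genes with an unadjusted p under 0.05 are named. Furin, Vcan, Nrg1 and the single marker genes were named after their values were seen. The members and lists were chosen with earlier results of these data known. The title's replicate numbers are not stated to pair preparations. Promoter sequences are RefSeq's (GRCm38.p6). R 4.3.3, limma 3.58.1, Python 3.11.15 and matplotlib 3.10.9 were used.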

Additional observations from a re-analysis of the deposited data

How the results depend on the processing

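The 11 alternatives were the values as deposited, median centring, brighter probe sets only, averaging all probe sets of each gene, unmarked probe sets only, an intensity trend with robust moderation, the replicate number as a block, and each array left out in turn. A fit without 1 array assumes that the lone array varies like the other group. Of the 29 genes described singly, 19 kept the sign of their difference under every alternative that could be run for them. Genes with only dim or only marked probe sets have no value where those are left out, Adamtsl4 among the marked. The count of members called by limma was 0, became 0 to 1 with an array left out (Adamtsl4, without metastatic replicate 1, where 35 of all 18193 genes were called) and 3 with the replicate number as a block (93 of all genes), and was 0 under the other 6 alternatives. With the block, limma called Mmp3 at -2.18 (adjusted p = 0.0063), Timp3 at -1.51 (adjusted p = 0.0119) and Adamtsl4 at -1.49 (adjusted p = 0.0117). The labels do not state that the numbers pair preparations, and the deviations of same-numbered arrays had a correlation of 0.25 over probe sets. Over all settings limma's adjusted p ran between 0.0063 and 0.76 for Mmp3, 0.0119 and 0.76 for Timp3, and 0.0117 and 0.51 for Adamtsl4. Leaving out an array gave 8 to 18 of 70 members at an unadjusted p under 0.05, against 3.74% to 15.6% of all genes. It gave 46 to 56 members whose groups did not overlap, against 58.9% to 77.5% of all genes, since a lone array overlaps less easily. Median differences with an array left out ran from -0.038 to 0.041 for ADAM and from -0.14 to 0.064 for ADAMTS genes. With brighter probe sets only, 19 of 38 members did not overlap, against 36.6% of all genes. The 7 genes of the pathway lists at an unadjusted limma p under 0.05 became 4 when probe sets were averaged and 14 with the block. Of all genes, 6.70% had such a p in the main fit, 6.63% with averaged probe sets and 9.56% with the block. With an array left out, signs turned for 9 genes, whose differences ran between -0.032 and 0.80 (Mmp19), -0.18 and 0.41 (Mmp23), -0.088 and 0.22 (Timp4), -0.078 and 0.48 (Adam23), -0.14 and 0.081 (Adam15), -0.27 and 0.27 (Adam19), -0.26 and 2.15 (Adamts15), -0.33 and 0.15 (Adamts12), and -0.092 and 1.18 (Adamts6). With median centring Adam15 stood at 0.0089 and Adam19 at 0.016. With averaged probe sets Adam10 stood at 0.12, Adam15 at 0.091 and Adam19 at 0.034, and with unmarked probe sets Adam15 at 0.031. The cause was not tested in any of these cases. Differences at probe sets below the median signal are limited by signal over background.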
